A study of Homo sapiens with 8 samples.

Results

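RAS-branch small GTPases are the switch proteins nearest to RAS itself: the classical RAS proteins HRAS and NRAS, the R-RAS proteins RRAS and RRAS2, the RAP1 pair RAP1A and RAP1B, the RAL pair RALA and RALB, and RIT1. Members were the probe sets that the platform annotation gives exactly 1 symbol, that symbol being among these 9 genes. At 12 h, 7 probe sets for 7 of the 9 genes were found among 8746 probe sets, and at 6 h, 11 probe sets for 8 of the 9 genes among 22215. RAP1B was read at 6 h only, and NRAS was not analysed here.

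The cells were MRC5, a human diploid fibroblast line, grown in medium with 10% serum and given either 10 µM 8-oxoguanine, an oxidised form of the free base guanine, or the solvent alone as a mock treatment. There were 3 treated and 3 mock arrays at 12 h, labelled technical replicates by extract, and 1 treated and 1 mock array at 6 h, on another and larger array type. The time label was followed for the 12 h arrays, although the treatment text names 6 h for every sample. No label says that the 3 extracts of a group came from separate cultures. The p-values here thus measure how far these extracts spread, which by the labels is technical spread, not spread between cultures. Precision is limited by how few arrays there are.

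A small GTPase is active when it holds GTP and inactive when it holds GDP. Exchange factors load GTP, GTPase-activating proteins end the signal, and lipid tails placed on the end of the protein hold it at membranes. The repair enzyme OGG1, when bound to the free base, is reported to activate RAS proteins by exchange. The arrays read the amount of messenger RNA only and say nothing about the nucleotide bound.

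At 12 h the messages of RIT1 and RRAS fell in treated cells. RIT1 fell by 33.1% and RRAS fell by 21.4%. No member passed the test as higher, and 5 of the 7 did not pass it in either direction (limma, Benjamini-Hochberg adjusted p under 0.05 over 5248 probe sets). At an unadjusted limma p under 0.05, 1 member was higher, RRAS2, and 3 were lower, RIT1, RRAS and HRAS. The share of all probe sets under that unadjusted cutoff was not counted, so these numbers are no result about the family. Of all probe sets tested, 13.2% passed the adjusted threshold, 6.65% lower and 6.59% higher. With 7 members, a count of 2 at that threshold is not a result about the family. The median log2 fold change was -0.15 over the 7 members and 0.0072 over all 5248 probe sets. All 7 member probe sets were bright enough to be tested, with mean signals between percentiles 67.5 and 85.3 of the array.

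RIT1 had the largest change of the family. The window upstream of its outermost annotated start is shown because RIT1 carried that change. It is the 250 bases before the start, from RefSeq on GRCh38.p14, chr1:155911350-155911599 on the minus strand, written 5′ to 3′ along the gene, and capitals mark each GC box, searched as GGGCGG on both strands.
RIT1: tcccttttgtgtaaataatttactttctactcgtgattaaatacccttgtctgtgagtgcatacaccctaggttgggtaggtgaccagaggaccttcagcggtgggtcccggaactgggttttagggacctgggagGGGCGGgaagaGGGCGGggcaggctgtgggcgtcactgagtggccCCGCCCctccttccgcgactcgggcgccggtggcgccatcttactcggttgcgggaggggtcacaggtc

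This RIT1 window held 3 GC boxes, which begin 114, 103 and 69 bases before the start. The window of the other annotated start of RIT1 held no GC box. A GC box on either strand was found in 8 of 12 upstream windows of 250 bases of the 8 members with an entry, against 42.6% of 35116 such windows of all genes. CCAAT was found in 2 of the 12 windows, those of HRAS and RALB, against 32.0% of all windows. The E-box CACGTG was found in 1, that of NRAS, against 6.34%, and TATAAA in none, against 10.7%. These matches describe the letters in the windows only.

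RIT1 encodes a RAS-like GTPase that lacks the lipid tail of its relatives. Its array signals were 522.6, 398 and 474 in mock cells and 308, 309.8 and 309.6 in treated cells. The 3 treated arrays were nearly equal, and all of them were below the lowest mock array. Mock arrays averaged 465 ± 62.8 and treated arrays 309 ± 0.938 (SD, n = 3). Its log2 fold change was -0.58 (SE 0.12, 95% interval -0.85 to -0.31, limma adjusted p = 0.0125). The size of this change was at or above that of 93.3% of the probe sets tested. RIT1 kept its call without any one array, with a log2 fold change of -0.49 without mock replicate 1 and -0.69 without mock replicate 2.

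RRAS encodes R-Ras, a GTPase known for its part in integrin-mediated adhesion. Its signals were 1051, 1162 and 1153 in mock cells and 869, 894 and 879.6 in treated cells. The groups did not overlap, and the treated arrays lay closer together than the mock arrays. Mock arrays averaged 1122 ± 61.7 and treated arrays 881 ± 12.9 (SD, n = 3). This gave a log2 fold change of -0.35 (SE 0.08, 95% interval -0.52 to -0.18, limma adjusted p = 0.0155). The call was lost without 8-oxoguanine replicate 1 (adjusted p = 0.0681), without 8-oxoguanine replicate 2 (0.0550) and without mock replicate 3 (0.0611), at log2 fold changes of -0.34, -0.36 and -0.33.

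HRAS encodes a classical RAS protein that passes growth factor signals to the RAF kinases. Its signals were 582, 668 and 633 in mock cells and 472, 564 and 481 in treated cells. Every treated array was below every mock array, but the highest treated array was near the lowest mock array. Mock arrays averaged 628 ± 43.6 and treated arrays 506 ± 50.9 (SD, n = 3). The log2 fold change was -0.31 (SE 0.10, 95% interval -0.55 to -0.08), and it did not pass (limma adjusted p = 0.0744).

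RRAS2 encodes TC21, the closest relative of R-Ras in the set. Its signals were 1001, 795 and 941 in mock cells and 1163, 1114 and 1106 in treated cells. The 3 treated arrays were above the 3 mock arrays, of which mock replicate 2 was the lowest. Mock arrays averaged 912 ± 106.0 and treated arrays 1128 ± 30.8 (SD, n = 3). The log2 fold change was 0.31 (SE 0.10, 95% interval 0.10 to 0.52), which missed the threshold (limma adjusted p = 0.0573). It came under the threshold with the stricter filter on dim probe sets (0.0458) and without mock replicate 1 (0.0453, log2 fold change 0.38), and was 0.22 without mock replicate 2.

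**Figure D1:**
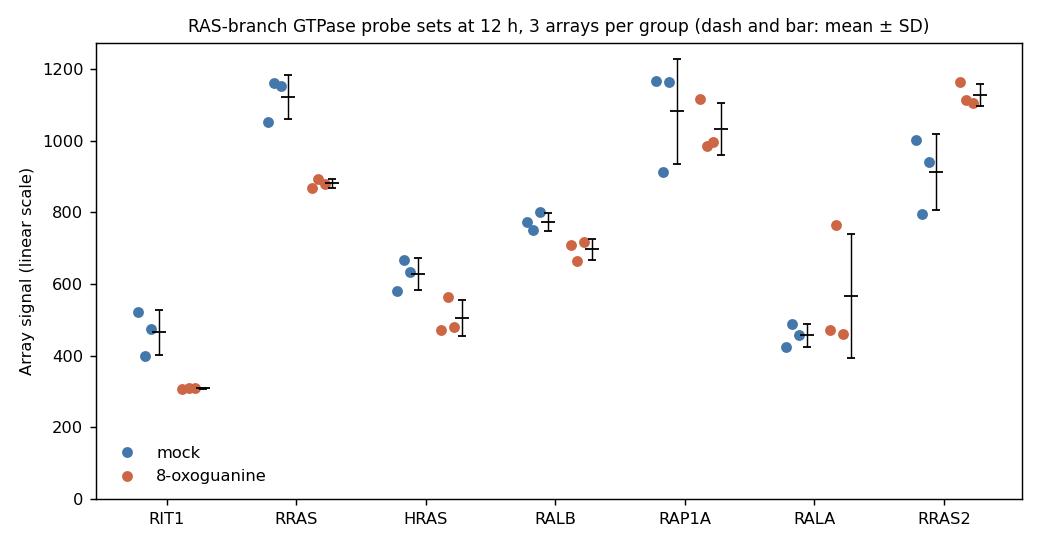
Array signal on a linear scale (vertical) of the 7 member probe sets at 12 h, with blue points for the 3 mock arrays and orange points for the 3 8-oxoguanine arrays of each gene, and a dash and bar for the mean ± SD. The treated points of RIT1, RRAS, HRAS and RALB lie below all mock points, those of RRAS2 lie above them, and those of RAP1A and RALA overlap with them.

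The RAL proteins are driven by exchange factors that RAS binds directly, and they act on vesicle delivery to the cell surface. RALB had signals of 772, 749 and 800.3 in mock cells and 708, 664 and 717 in treated cells. The groups did not overlap, and the gap between them was narrow. The means were 774 ± 25.5 and 697 ± 28.5 (SD, n = 3), a log2 fold change of -0.15 (SE 0.08, 95% interval -0.33 to 0.03, limma adjusted p = 0.246).

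RALA had signals of 424, 488 and 458 in mock cells and 472, 766 and 461 in treated cells. Only 8-oxoguanine replicate 2 stood above the mock arrays. The log2 fold change was 0.27 (SE 0.18, 95% interval -0.13 to 0.67, limma adjusted p = 0.363), and it was 0.03 without that array. The name of this probe set ends in x_at, which marks probes that can also match other sequences.

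RAP1A encodes a GTPase that competes for RAS effectors and controls adhesion. It had signals of 1167, 913 and 1165 in mock cells and 1117, 984 and 997 in treated cells. The groups overlapped, with mock replicate 2 the lowest of the 6 arrays. The log2 fold change was -0.06 (SE 0.11, limma adjusted p = 0.778), and the 95% interval of -0.30 to 0.18 leaves room for a change of either sign.

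The groups did not overlap at 5 of the 7 members, 4 lower and 1 higher in treated cells, against 33.9% of all probe sets tested. In the R-RAS pair, compared after the values were seen, the difference between the log2 fold changes of RRAS2 and RRAS was 0.66, with no overlap between the groups of arrays in their within-array log2 difference (exact permutation test, two-sided p = 0.10, the smallest that 3 arrays against 3 allow, 0.20 after adjustment over 2 pairs). Every treated array was below every mock array for RRAS and above for RRAS2, so this outcome was fixed by the values already given and adds nothing to them. For RALA against RALB the difference was 0.42, with overlap (exact permutation test, two-sided p = 0.20, 0.20 after adjustment). Neither pair passed a threshold of 0.05, which this test cannot reach here.

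**Figure D2:**
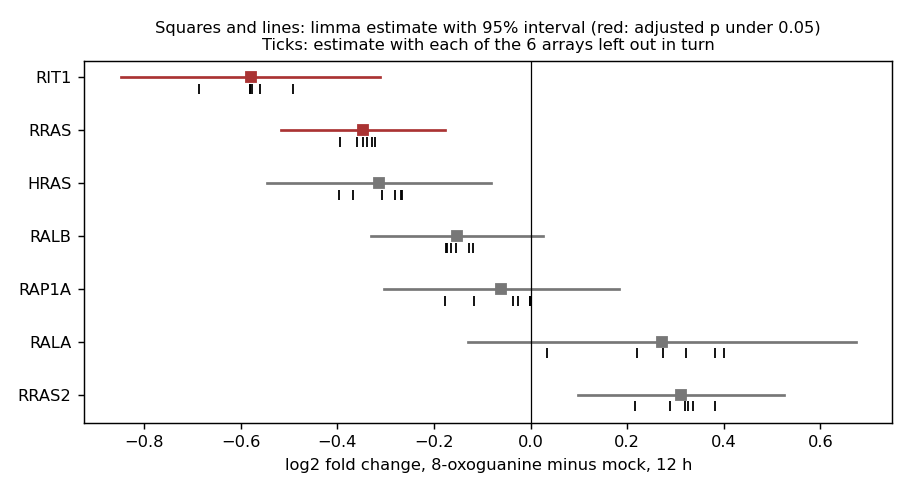
Log2 fold change of 8-oxoguanine minus mock at 12 h (horizontal) for each member. Squares and lines give the limma estimate and its 95% interval, in red where the adjusted p was under 0.05, and ticks give the estimate with each of the 6 arrays left out in turn. The intervals of RIT1, RRAS, HRAS and RRAS2 do not include 0, RIT1 and RRAS being in red, and the lowest tick of RALA is at 0.03.

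The named genes whose pattern over the 6 arrays at 12 h was most like that of RIT1 were NDRG1, MMP1 and CCNB2. Likeness was the root mean square difference between the log2 values after each probe set was centred on its own mean, and it was 0.025, 0.058 and 0.062, against a median of 0.357 over the 4738 probe sets compared. NDRG1 averaged 853 ± 90.7 on mock and 565.6 ± 1.32 on treated arrays. MMP1, a collagenase, averaged 2818 ± 244 and 1846 ± 85.4, and CCNB2, a mitotic cyclin, 674 ± 69.2 and 430.4 ± 22.6 (SD, n = 3 each). Like RIT1, NDRG1 had treated arrays that lay very close together. For RRAS the nearest were HNRNPDL, TCTA and HSPB1, at 0.035, 0.037 and 0.038 against a median of 0.247. Their log2 fold changes were -0.37, -0.39 and -0.32. With 6 arrays in 2 groups, this likeness includes the difference between the groups.

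At 6 h none of the 11 member probe sets reached 1.5-fold in either direction, against 8.76% of 11108 probe sets above the 50th percentile of mean signal, a limit that all 11 passed. With 1 array per treatment there was no replicate check and no test. Of the 11 log2 ratios, 5 were above 0 and 6 below, with a median of -0.08, and the median of all 11108 was -0.03. Cut into 5 parts by mean signal, the 11108 had a median of -0.10 in the dimmest part and 0.14 in the brightest. Centring each array on its median moved every ratio up by 0.12, which turned the member split to 6 above and 5 below and the split of all probe sets past 1.5-fold from 369 higher and 604 lower to 601 and 365.

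RAP1A had the lowest ratio, at 1562 treated and 2153 mock. The log2 ratio was -0.46. It stayed lowest with median centring (-0.35) and quantile normalization (-0.44). RRAS had the highest, with 1052 treated and 853 mock, a log2 ratio of 0.30 that was 0.42 and 0.38 under these scalings. RRAS was thus higher on the treated array at 6 h and lower on all treated arrays at 12 h, on array types that differ.

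RRAS2 was read by 3 probe sets at 6 h, which gave treated and mock signals of 911 and 1081, 1349 and 1429, and 1918 and 2345. Their log2 ratios were -0.25, -0.08 and -0.29, all below 0, and the second, the probe set also read at 12 h, turned to 0.03 with median centring. RALB was read by 2 probe sets, with log2 ratios of 0.0090 and -0.16. RALA had 1002 treated and 1230 mock, a log2 ratio of -0.30. The remaining members lay near 0: RIT1 had 402 and 383 (0.07), HRAS 948 and 909 (0.06), and RAP1B, the close relative of RAP1A, 3493 and 3429 (0.03, and -0.07 with quantile normalization).

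**Figure D3:**
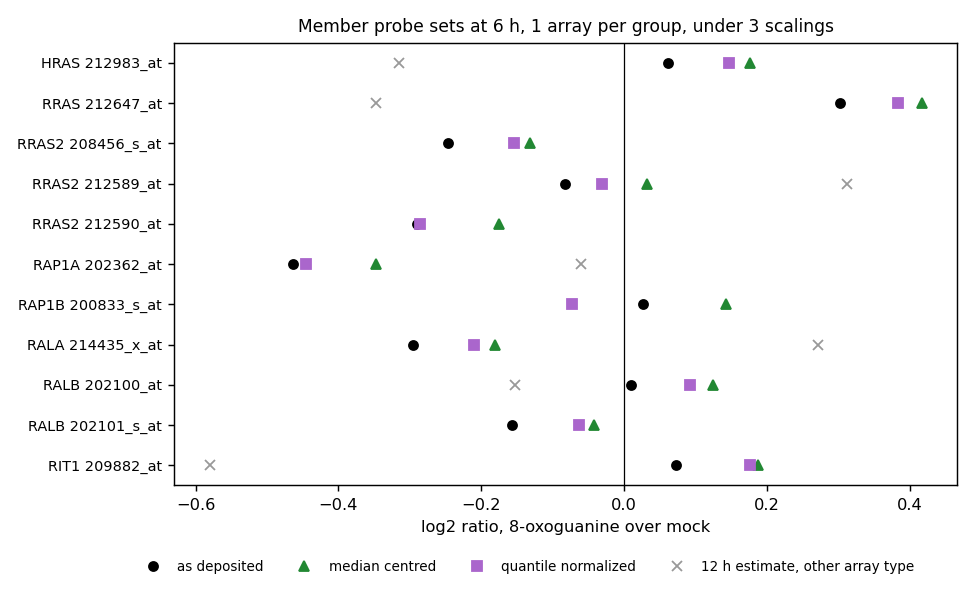
Log2 ratio of 8-oxoguanine over mock at 6 h (horizontal) for the 11 member probe sets, with 1 array per group, as deposited (black circles), median centred (green triangles) and quantile normalized (purple squares). Grey crosses give the 12 h estimate of the same probe set on the other array type. RAP1A lies lowest at -0.46 and RRAS highest at 0.30, and the 3 probe sets of RRAS2 lie below 0 as deposited.

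Of the 7 probe sets read at both times, RAP1A had the same sign at 6 h and 12 h, and the other 6 had opposite signs. Among these 6, RALB (0.0090), HRAS (0.06), RIT1 (0.07) and RRAS2 (-0.08) lay near 0 at 6 h. RRAS (0.30) and RALA (-0.30) lay further off. With median centring RRAS2 turned to 0.03, the sign of its 12 h estimate. The share of opposite signs over all probe sets read at both times was not counted, so this is no result about the family. The 2 times used different array types and different numbers of arrays, so time and array type cannot be told apart, and no test of the difference was made.

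Around these GTPases, 115 further genes were listed, 22 of them other GTPases of the branch and the rest genes that regulate, process or receive signals from such proteins. Of these, 43 were tested at 12 h, and 3 rose, 2 fell and 38 did not pass. These 5 are 11.6% of the genes tested, a share near the 13.2% of all probe sets and so no result about the lists. At an unadjusted limma p under 0.05, 8 of the 43 were higher and 2 were lower. The share of all probe sets under that cutoff was not counted, so these numbers too are no result about the lists.

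Of 4 tested exchange factors, RGL2, which loads GTP onto the RAL proteins, rose and 3 did not pass, and the list's median log2 fold change was 0.19. RGL2 had signals of 332, 333 and 329.7 in mock cells and 459, 399 and 500.03 in treated cells, with no overlap between the groups. Its log2 fold change was 0.44 (SE 0.11, limma adjusted p = 0.0284). The call was lost without 8-oxoguanine replicate 1 (0.106) or 3 (0.0754) and without mock replicate 1 (0.0683) or 3 (0.0782). Of 4 tested GTPase-activating proteins none passed in limma's test. RASA2 was 1 of the 8 listed genes higher at an unadjusted limma p under 0.05, with a log2 fold change of 0.41 (SE 0.14, adjusted p = 0.0883). RASAL1 and RAP1GAP had -0.56 each (SE 0.26 and 0.81), RAP1GAP with scattered signals of nearly equal mean, 185 ± 105 on mock and 184 ± 167 on treated arrays (SD, n = 3). The list's median of -0.35 is the midpoint between RAP1GAP and RASA3, which had -0.15.

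Of 11 tested genes of lipid modification and membrane delivery, 1 rose, 1 fell and 9 did not pass, with a median log2 fold change of 0.05. FNTA, the alpha subunit shared by the enzymes that attach farnesyl and geranylgeranyl tails, had signals of 1291, 865 and 1207 in mock cells and 1593, 1738 and 1484 in treated cells. Every treated array was above every mock array, and its log2 fold change was 0.54 (SE 0.14, limma adjusted p = 0.0318). The call was lost without any one 8-oxoguanine array (0.0503 to 0.113), with median centring (0.0614), with no filter (0.0658) and with no intensity trend (0.0906). ZMPSTE24, a membrane protease that trims prenylated proteins, had 2056, 1932 and 1915 in mock cells and 1720, 1522 and 1450.2 in treated cells.

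ZMPSTE24 fell without overlap between the groups, by 0.33 on the log2 scale (SE 0.08, limma adjusted p = 0.0247). Its call was lost without 8-oxoguanine replicate 2 (0.0946) or 3 (0.0624), without mock replicate 1 (0.0804) or 3 (0.0580), and with no intensity trend (0.0781). Of 9 receptor adaptors, IRS2, which serves the insulin and IGF receptors, rose and 8 did not pass, with a list median of 0.02. IRS2 had signals of 566, 615 and 589.6 in mock cells and 801, 784 and 900.3 in treated cells. Its log2 fold change was 0.49 (SE 0.09, limma adjusted p = 0.00666), and it kept its call under all 13 alternatives, with adjusted p of 0.00588 to 0.0269.

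Of 9 effectors and MAP kinase cascade genes, 1 fell and 8 did not pass, with a median log2 fold change of -0.12. MAP2K1, which encodes the kinase MEK1 between RAF and ERK, had signals of 2020, 1399 and 1349 in mock cells and 1031, 972 and 1064 in treated cells. All treated arrays were below the mock arrays, of which mock replicate 1 stood far above the others. The log2 fold change was -0.61 (SE 0.14, limma adjusted p = 0.0183) and was -0.43 without mock replicate 1 (adjusted p = 0.0181). The call was lost without 8-oxoguanine replicate 1 (0.0559) or 2 (0.0689) and with no intensity trend (0.0635). MAP2K2, which encodes its partner MEK2, had a log2 fold change of 0.27 (SE 0.09) that did not pass (adjusted p = 0.0632).

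Among 6 tested other GTPases of the branch none passed in limma's test, and the median log2 fold change was 0.11. RAP2C was 1 of the 8 listed genes higher at an unadjusted limma p under 0.05. RAP2C had the largest log2 fold change, 0.48 (SE 0.17, adjusted p = 0.102), and RAP2A had -0.23 (SE 0.12, adjusted p = 0.244).

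**Figure D4:**
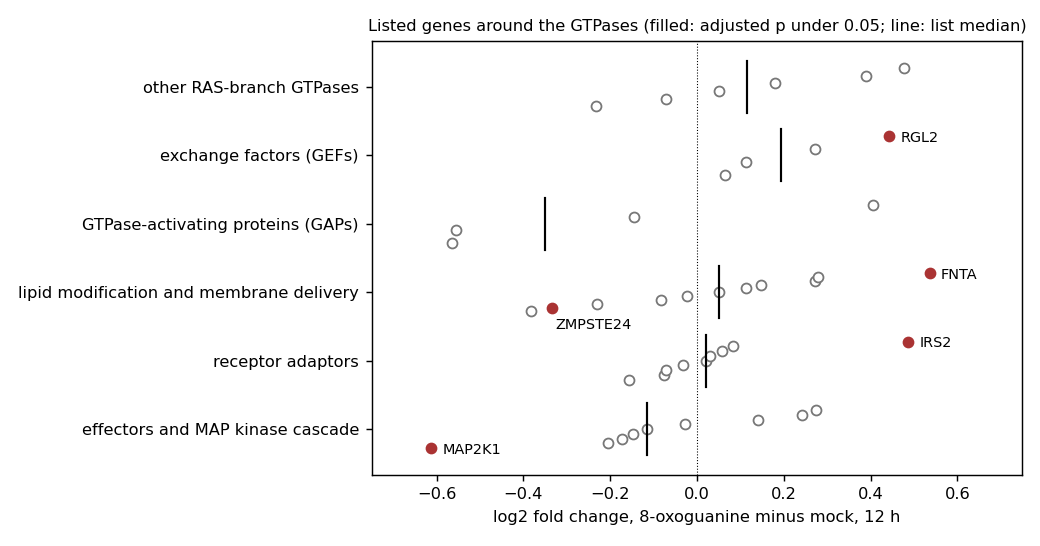
Log2 fold change at 12 h (horizontal) of each tested gene in 6 lists around the GTPases, 1 point per gene, filled where the limma adjusted p was under 0.05, with a black line at each list's median. RGL2, FNTA and IRS2 are filled to the right of 0 and ZMPSTE24 and MAP2K1 to the left, and the other 38 points are open.

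At 6 h the probe sets of the 5 called genes read at both times had log2 ratios of -0.10 for RGL2, 0.11 for FNTA, 0.05 for ZMPSTE24, -0.06 for IRS2 and 0.07 for MAP2K1. With median centring these became 0.01, 0.23, 0.16, 0.05 and 0.19, so RGL2 and IRS2 changed sign. Probe sets read at 6 h only had -0.37 for FNTA and -0.16 for IRS2 (-0.26 and -0.05 with median centring). Over the 56 listed genes above the signal limit the median was -0.09 as deposited and -0.00049 with quantile normalization.

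The labelled cell type was checked on the 12 h arrays. All 9 fibroblast markers on the array passed the signal limit, COL1A2, COL1A1 and VIM being among its brightest probe sets, and their summed signal was 62423 to 75867 in mock and 61470 to 75523 in treated cells. LUM averaged 143 ± 28.7 on mock and 297 ± 14.9 on treated arrays and S100A4 1097 ± 69.3 and 734 ± 55.6 (SD, n = 3), which the sum does not show. Of the markers of other cells, EPCAM, CDH1, KRT5, KRT14, CDH5, VWF, TEK, PTPRC and CD14 were under the limit. Their mean signals were 7.10 to 61.0 over both groups. PECAM1, an endothelial marker, passed it (135 on mock and 114 on treated arrays), as did the blood markers CD3E (112 and 123) and HBB (221 and 214). The summed signal of 4 endothelial markers was 219 to 240.4 in mock and 175 to 245 in treated cells, and that of 4 blood markers 324 to 416 and 339 to 420, overlapping in each case. Of 6 epithelial markers, KRT18 and KRT19 passed the limit, and the sum was 3943 to 4150 in mock and 4029 to 4281 in treated cells. KRT18 made up most of this sum, with 3639 ± 128 on mock and 3943 ± 143 on treated arrays (SD, n = 3). Its mean signal was at percentile 96.5 of the array. KRT19 alone averaged 277 on mock and 116 on treated arrays. The part of these markers in the results above was not tested.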

How the data were processed

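Total RNA of MRC5 cells was labelled with biotin and read on 2 short-oligonucleotide array types. The values deposited by the authors are linear intensities, one for each probe set on each array. MAS5 made them, per the submitters' processing notes, with no version or scaling target stated in what was used here. Trimmed means, leaving out 2% of values at each end, were 491 to 495 on all 8 arrays, so by that measure arrays share a scale. Medians ran from 143 to 165, and the 6 h ratios differed with signal as given above. Neither detection calls nor scanner files entered the work.

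Log2 of the deposited intensity was taken without further scaling and control probe sets were left out. Probe sets under the 40th percentile of mean log2 value at 12 h (a signal of 93.9) and the 50th at 6 h (148) were not tested or counted. Treated and mock arrays at 12 h were tested in limma 3.58.1 under R 4.3.3, two-sided, using lmFit and then eBayes with its intensity trend. Benjamini-Hochberg adjustment ran over 5248 probe sets, and the threshold was 0.05. A gene in a list counted by its brightest probe set. At 6 h no test was made. On data simulated for this comparison with 5248 probe sets, the fit found 83 of 100 true 2-fold changes, 55 of 100 true 1.5-fold changes and 6 false ones. The simulated noise was independent between arrays and took its size from these extracts, and 200 probe sets were changed. It therefore does not cover spread between cultures or effects shared by an array.

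Gene names came from the platform annotation with the values and were compared by gene ID with RefSeq's GRCh38.p14 table, which changed none. Promoter windows came from RefSeq on that build, with entries for 8 of the 9 members (RRAS was not found in the table). Array genes are given without coordinates. All 9 members were to be named, with up to 3 called genes of each list with the largest change and the 3 nearest profiles of each called member. RASA2, RASA3, RASAL1, RAP1GAP, MAP2K2, RAP2A and RAP2C were added after their values were seen, as was the comparison of the pairs of relatives. The members and lists were chosen with earlier results of these data known. Samples with the same extract number did not deviate together, so no pairing was used.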

Additional observations from a re-analysis of the deposited data

Results flagged for a closer look

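For 5 members whose 12 h groups did not overlap, the 6 h log2 ratio of the same probe set had the opposite sign. RRAS was 0.30 at 6 h and fell at 12 h. RIT1 was 0.073, HRAS 0.061 and RALB 0.0090 at 6 h, against 12 h estimates below 0. The other RALB probe set, read at 6 h only, was -0.16. RRAS2 was -0.083 at 6 h and 0.032 with median centring, against a 12 h estimate above 0. This difference was not tested, since 6 h had 1 array per treatment and another array type. How often signs were opposite over all probe sets read at both times was not counted.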

How the results depend on the processing

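RIT1 kept its direction and its call under all 13 alternatives, with log2 fold changes of -0.69 to -0.49 and adjusted p of 0.00544 to 0.0474. RRAS kept its direction under all 13 (-0.39 to -0.32) and lost its call under 3, each with 1 array left out. HRAS, RAP1A, RALA and RALB kept their direction and stayed uncalled. RRAS2 stayed above 0 (0.22 to 0.38) and gained a call under 2. Member genes called higher were 0 in the fit as reported and 1 with the stricter filter (60th percentile). Without any one array they were 0 to 1, and member genes called lower 1 to 2. All calls numbered 695, and 371 to 649 without any one array, being 371 without 8-oxoguanine replicate 1, 386 without 8-oxoguanine replicate 2 and 451 without mock replicate 3.

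Pathway genes called numbered 5, 3 higher and 2 lower. With the stricter filter 5 were higher. With no intensity trend 2 were called, none of them lower (0). With the extract number as a replicate block 3 were called, 1 higher, RGL2 and FNTA losing their calls (adjusted p = 0.0572 and 0.0524), and all calls numbered 513. The correlations of the deviations of same-numbered extracts were 0.0757, -0.149 and -0.0503, so the samples share only a number. Without any one array 2 to 5 were called, 1 to 3 higher and 0 to 2 lower. At 6 h, median centring turned RRAS2 to 0.032 and quantile normalization turned RAP1B to -0.074. Taking the median of a gene's probe sets changed no count of genes. With 3 arrays per group, the 95% intervals given for each member limit what can be seen.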
